A study of Mus musculus with 8 samples.

Results

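The genes that make, store, take up and break down noradrenaline were examined in mouse sympathetic ganglia. The set was defined by symbol and held 9 genes. *Th*, *Ddc* and *Dbh* encode the synthetic enzymes, *Gch1* and *Pts* make the cofactor of tyrosine hydroxylase, *Slc18a2* and *Slc6a2* encode the vesicular and the plasma membrane transporter, and *Maoa* and *Maob* encode the monoamine oxidases. All 9 of 9 listed genes had a value at both stages, among 13506 genes at E11.5 and 13413 genes at E14.5.

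At E11.5, ganglia of conditional knockout embryos (CKO, genotype *Wnt1-Cre;Isl1 f/f*) were compared with those of control embryos of genotype *Wnt1-Cre;Isl1+/+*. At E14.5, the comparison was of hypomorphic embryos, which have the genotype *Isl1 f-neo/f-neo*, with *Isl1+/+* wildtype embryos. Both E11.5 groups carried *Wnt1-Cre*, which acts in the neural crest and its derivatives, and a *Rosa26-tdTomato* reporter that guided the dissection. The hypomorphic allele is present throughout the embryo and lowers *Isl1*, a LIM homeodomain transcription factor, without removing it. Each group had 2 polyA libraries, each from the pooled ganglia of several embryos, and the labels give no sex.

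The deposited values are FPKM, that is, fragment numbers scaled by transcript length and by all mapped fragments, with 1 value per gene and group in which the 2 libraries are combined. The spread between libraries and the depth are therefore unknown, and no test could be made from these values. The authors' own p-values of mutant against control were not used, so the differences below have no replicate check. "Lower" and "higher" refer to these single values. Ratios were computed after adding 0.1 to each FPKM, and a difference of 1.5-fold or more was counted. In bulk ganglia, fewer noradrenergic neurons and less RNA per neuron cannot be told apart.

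Noradrenaline is made from tyrosine. Tyrosine hydroxylase, encoded by *Th*, uses tetrahydrobiopterin to form L-DOPA in the rate-limiting step, and aromatic amino acid decarboxylase, encoded by *Ddc*, turns L-DOPA into dopamine. The vesicular transporter VMAT2, encoded by *Slc18a2*, carries dopamine into vesicles, where dopamine beta-hydroxylase, encoded by *Dbh*, converts it to noradrenaline. After release, the noradrenaline transporter, encoded by *Slc6a2*, returns it to the terminal, and monoamine oxidase on the mitochondrial outer membrane breaks down what is not stored again. Postganglionic sympathetic neurons are a main peripheral source of noradrenaline, and HAND2, GATA and INSM1 transcription factors are known to act upstream of *Th* and *Dbh*.

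*Isl1* itself was measured at 133 FPKM in the control and at 40.0 in the CKO, which is 3.31-fold lower. At E14.5 it was 162 FPKM in wildtype and 83.1 in hypomorphic ganglia, 1.95-fold lower. Both directions match the genotype labels. Of 7 listed transcription factors of noradrenergic neurons, *Hand2* was the most abundant in control ganglia at 298 FPKM, and *Phox2a* was so in wildtype ganglia at 553 FPKM. Of the listed sensory neuron markers that sympathetic neurons do not share, 6 in all, each had either no value or at most 2.70 FPKM. The CKO pool held more RNA of other cell types than its control. Summed FPKM was 177 in control and 387 in CKO ganglia for 8 glial and neural crest markers, 579 and 1008 for 8 mesenchymal markers, and 45.8 and 109 for the 7 of 9 macrophage markers with a value. The sum over erythroid genes took 2.28% of all FPKM in control and 11.2% in CKO ganglia, against 1.26% in wildtype and 1.55% in hypomorphic ganglia. *Hbb-y*, at 7552 FPKM in the control, is listed at 0 in the CKO, and without it the shares were 0.699% and 11.2%. The part of these differences in the ratios of the 9 genes was not tested, and ratios between members of the set within 1 group, which do not depend on the scale, are given for that reason.

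The 3 synthetic enzymes were the most abundant members in every group. *Dbh*, on chromosome 2 (mm9 chr2:27020753-27038720, plus strand), was listed at 543 FPKM in control, 594 in CKO, 608 in wildtype and 568 in hypomorphic ganglia. It ranked 124th and 132nd of all genes at E11.5 and 57th and 56th at E14.5. Its 4 values lay closer together than those of any other member.

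*Ddc* (chr11:11714104-11798047, minus strand) was listed at 195 FPKM in control, 172 in CKO, 425 in wildtype and 391 in hypomorphic ganglia. As deposited, these single values lay further apart between stages than between genotypes, and the stage difference crosses 2 tables that were normalized separately. *Th* (chr7:150078657-150117033, minus strand) was at 184 FPKM in control, 145 in CKO, 280 in wildtype and 207 in hypomorphic ganglia, lower in the mutant at each stage. The annotated *Th* locus spans 38.4 kb because 2 transcripts start far upstream, whereas the transcript ENSMUST00000000219.3 spans 7.26 kb.

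For the cofactor, *Gch1* (chr14:47773570-47809088, minus strand), which encodes GTP cyclohydrolase, the first and rate-limiting enzyme of tetrahydrobiopterin synthesis, was at 46.6 FPKM in control, 13.2 in CKO, 83.8 in wildtype and 56.0 in hypomorphic ganglia. The CKO value stood well below the other 3. *Pts* (chr9:50329723-50336746, minus strand), which encodes the next enzyme of that route, was at 11.9, 14.5, 18.0 and 16.4 FPKM in the same order and was the least abundant member in 3 of the 4 groups.

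Among the transporters, *Slc18a2* (chr19:59335368-59370502, plus strand) was at 75.9 FPKM in control, 68.6 in CKO, 133 in wildtype and 138 in hypomorphic ganglia. *Slc6a2* (chr8:95483978-95525566, plus strand) was at 61.4 FPKM in control, 18.9 in CKO, 178 in wildtype and 146 in hypomorphic ganglia. The plasma membrane transporter thus covered a far wider range than the vesicular one.

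Both oxidases lie on the X chromosome, where *Maoa* (chrX:16196824-16264944, plus strand) and *Maob* (chrX:16286408-16394492, minus strand) point towards each other with 21.5 kb between them. *Maoa* was at 147 FPKM in control, 68.3 in CKO, 136 in wildtype and 153 in hypomorphic ganglia. *Maob* was at 17.3 FPKM in control, 7.48 in CKO, 19.7 in wildtype and 21.2 in hypomorphic ganglia. In both genes 3 groups were close together and the CKO group was lower.

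**Figure D1:**
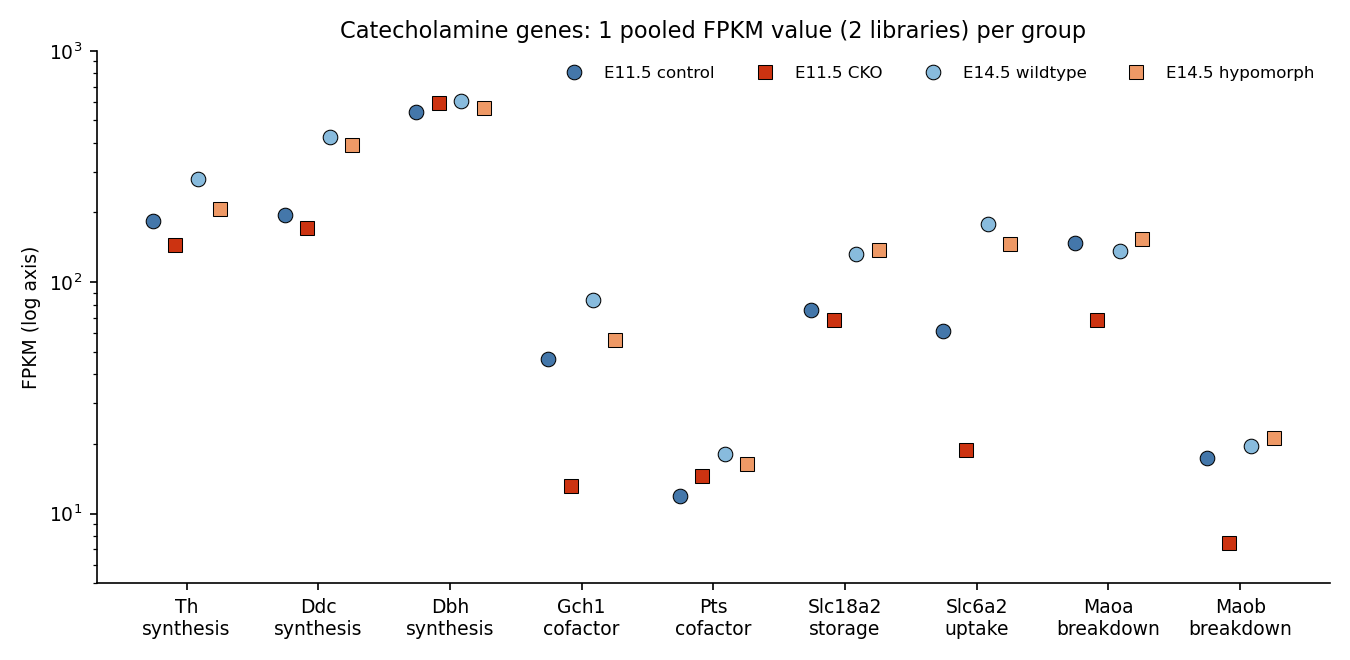
FPKM of the 9 catecholamine genes on a log axis, with 1 point per group (the authors' pooled value of 2 libraries, so no error bar). Circles are control and wildtype and squares are mutant ganglia. The CKO squares of *Gch1*, *Slc6a2*, *Maoa* and *Maob* lie apart from the other 3 points of the gene, whereas the 4 points of *Dbh* lie between 543 and 608 FPKM.

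By level per length, the order in control ganglia was *Dbh*, *Ddc*, *Th*, *Maoa*, *Slc18a2*, *Slc6a2*, *Gch1*, *Maob* and *Pts*, over a 45.7-fold range. *Ddc* stood only 1.06-fold above *Th*, and without a spread it cannot be said whether such neighbours differ. In CKO ganglia the range was 79.5-fold, *Slc18a2* and *Maoa* stood level, and *Gch1* was placed below *Pts*. In wildtype ganglia at E14.5 *Slc6a2* came next after *Th*, ahead of *Maoa* and *Slc18a2*, which were 1.03-fold apart, and the range was 33.8-fold. In hypomorphic ganglia *Maoa*, *Slc6a2* and *Slc18a2* followed *Th*, with 1.05-fold and 1.06-fold between neighbours, and the range was 34.7-fold. *Dbh* made up 42.4% of the summed FPKM of the 9 genes in control, 53.9% in CKO, 32.3% in wildtype and 33.5% in hypomorphic ganglia.

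The start regions of the members are shown so that genes with unlike mutant values, *Th* and *Dbh* against *Gch1* and *Maoa*, can be set side by side. RefSeq promoters (GRCm38.p6, a later build than that of the positions above; 250 bases before and 50 after the start site) were matched for 7 of 9 members, all but *Slc6a2* and *Maob*. The windows below are *Th* (chr7:142899946-142900245, minus strand), *Dbh* (chr2:27165257-27165556, plus), *Slc18a2* (chr19:59260628-59260927, plus), *Gch1* (chr14:47189364-47189663, minus) and *Maoa* (chrX:16619448-16619747, plus). They are written 5′ to 3′ along the gene, and capitals mark every TAAT (the homeodomain core), TGACGTCA (the cAMP response element) and CCGCCC (the SP1-type GC box) on either strand.
Th: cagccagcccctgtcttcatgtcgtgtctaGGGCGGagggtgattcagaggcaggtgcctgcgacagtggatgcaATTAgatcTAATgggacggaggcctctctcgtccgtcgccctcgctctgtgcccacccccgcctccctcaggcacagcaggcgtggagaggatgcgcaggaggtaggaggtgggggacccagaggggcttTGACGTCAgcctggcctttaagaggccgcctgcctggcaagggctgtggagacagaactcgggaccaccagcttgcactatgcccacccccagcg
Dbh: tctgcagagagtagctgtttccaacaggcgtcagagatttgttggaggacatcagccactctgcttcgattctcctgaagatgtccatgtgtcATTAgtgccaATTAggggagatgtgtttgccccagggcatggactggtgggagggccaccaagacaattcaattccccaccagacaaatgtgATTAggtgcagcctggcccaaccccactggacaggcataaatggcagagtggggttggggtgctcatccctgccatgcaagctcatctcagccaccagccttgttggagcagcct
Slc18a2: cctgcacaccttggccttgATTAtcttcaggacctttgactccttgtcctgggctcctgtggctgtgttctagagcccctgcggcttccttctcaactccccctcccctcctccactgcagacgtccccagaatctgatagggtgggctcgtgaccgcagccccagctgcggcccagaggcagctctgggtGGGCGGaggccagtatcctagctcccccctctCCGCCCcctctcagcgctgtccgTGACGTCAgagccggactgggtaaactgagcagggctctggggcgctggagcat
Gch1: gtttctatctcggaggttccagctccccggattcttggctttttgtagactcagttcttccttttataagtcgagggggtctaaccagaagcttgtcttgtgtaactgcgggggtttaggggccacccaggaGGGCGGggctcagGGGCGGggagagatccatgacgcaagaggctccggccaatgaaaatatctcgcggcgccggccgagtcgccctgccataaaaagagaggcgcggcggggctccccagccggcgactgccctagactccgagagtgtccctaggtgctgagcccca
Maoa: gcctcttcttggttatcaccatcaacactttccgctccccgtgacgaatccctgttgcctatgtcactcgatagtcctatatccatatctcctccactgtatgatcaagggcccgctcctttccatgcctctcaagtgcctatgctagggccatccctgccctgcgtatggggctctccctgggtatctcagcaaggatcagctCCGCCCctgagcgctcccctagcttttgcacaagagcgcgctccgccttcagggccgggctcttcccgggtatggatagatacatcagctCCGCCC

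Homeodomain cores were found in the windows of *Th*, *Ddc*, *Dbh* and *Slc18a2*, 4 of the 7 members, and in 58.0% of 32851 promoters of the same length. The longer CTAATG, which contains TAAT and is a known type of ISL1 site, was in *Th*, *Ddc* and *Dbh* and in 7.36% of promoters, and CTAATT was in *Th* and *Dbh* and in 8.21%. In *Th* the core matches begin at positions -175 and -167 from the start site, and in *Dbh* at -157, -147 and -65. The windows of *Gch1*, *Maoa* and *Pts* hold no TAAT, and *Pts* was not among the genes lower in a mutant by 1.5-fold. TGACGTCA begins at -45 in *Th* and at -4 in *Slc18a2*, and 1.79% of promoters hold it. The GC box was in *Th*, *Slc18a2*, *Gch1*, *Pts* and *Maoa* (35.7% of promoters), with 2 matches each in *Slc18a2*, *Gch1* and *Maoa*. Of the other motifs searched on both strands, GATAA was in *Slc18a2* and *Maoa* (25.4% of promoters), the E-box CANNTG in *Th*, *Dbh*, *Slc18a2* and *Maoa* (72.3%), and TATAAA in *Ddc* and *Gch1* (13.6%). These matches describe the letters of 1 window per start site, or 2 for *Ddc*, and say nothing about binding. *Slc6a2* and *Maob*, which were lower in the CKO, have no window, and any relation of motifs to the mutant values was not tested.

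Loss of *Isl1* in the neural crest lineage was examined at E11.5, when sympathetic neurons start to differentiate. Of the 9 catecholamine genes 4 were at least 1.5-fold lower in CKO than in control ganglia and 0 were higher, and 12.9% and 18.9% of all 13484 genes were lower and higher by that measure. The 4 were *Gch1*, 3.52-fold lower (log2 ratio -1.82), *Slc6a2*, 3.24-fold lower (-1.70), *Maob*, 2.30-fold lower (-1.20), and *Maoa*, 2.15-fold lower (-1.11). Only 1.40% of all genes had a more negative ratio than *Gch1*, 1.61% a more negative ratio than *Slc6a2*, 3.24% than *Maob* and 3.87% than *Maoa*.

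The other 5 members were within 1.5-fold. *Th* had a log2 ratio of -0.34 (1.27-fold lower), *Ddc* of -0.18, *Slc18a2* of -0.15, *Dbh* of 0.13 and *Pts* of 0.29. Of all genes, 23.2% had a more negative ratio than *Th* and 55.9% than *Dbh*. At a fold of 1.2, *Th* joined the 4 lower genes and *Pts* was higher, where 27.5% of all genes were lower and 34.8% higher. The median of the 9 log2 ratios was -0.34, beside 0.05 over all genes, of which the middle 50% lay between -0.31 and 0.45. Thus the enzymes that convert tyrosine to noradrenaline differed little between these pools, whereas *Gch1*, 1 of the 2 cofactor enzymes, the reuptake transporter and both oxidases were lower, and the other cofactor enzyme, *Pts*, was not.

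**Figure D2:**
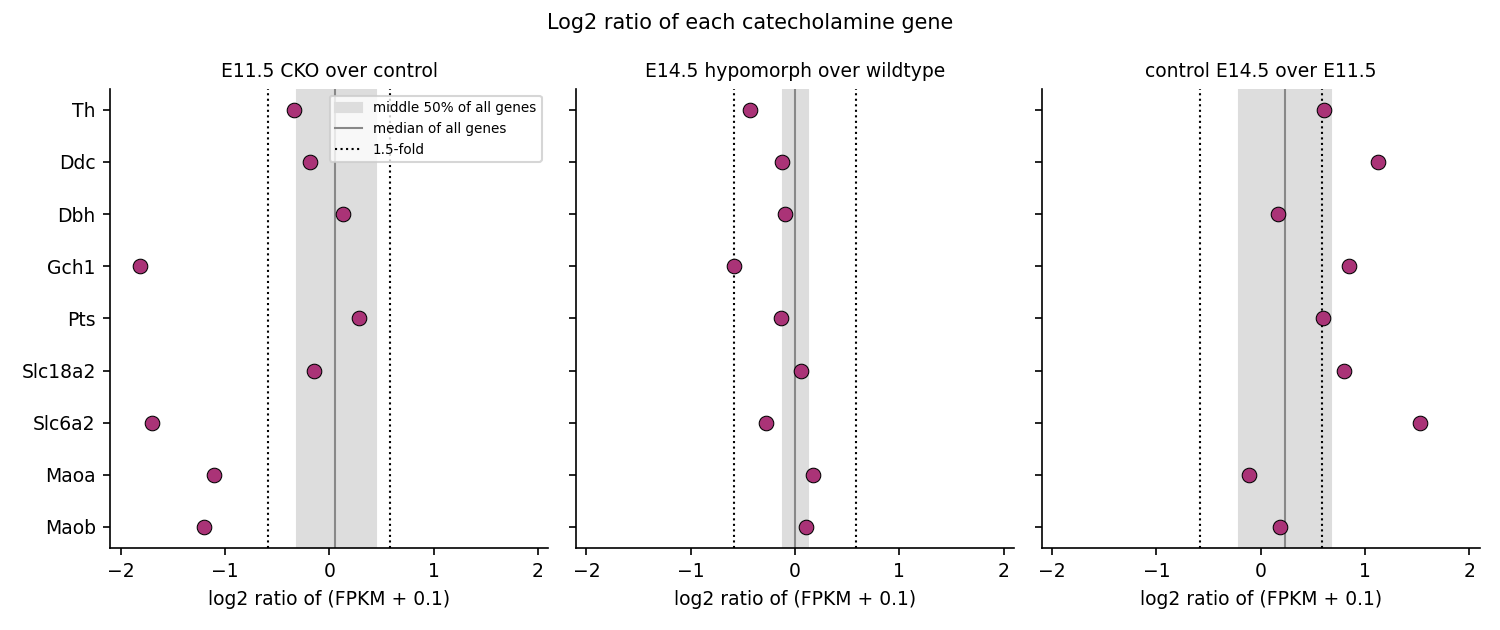
Log2 ratio of (FPKM + 0.1) of each catecholamine gene in the 3 comparisons, with 1 point per gene, the middle 50% of all genes in grey, their median as a solid line and 1.5-fold as dotted lines. In the CKO panel 4 genes lie left of the lower dotted line; in the hypomorph panel *Gch1* lies just inside it; in the stage panel 6 genes lie right of the upper one.

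Under 7 other scalings and pseudocounts the 4 genes stayed at least 1.5-fold lower. After centring on 18 pan-neuronal genes, whose own median in CKO ganglia was -0.44, the log2 ratio was -1.38 for *Gch1*, -1.26 for *Slc6a2*, -0.76 for *Maob* and -0.67 for *Maoa*. With that centring the median of the 9 genes became 0.10, *Th* was at 0.10, *Dbh* at 0.57 and *Pts* at 0.72. With equal sums over all genes *Th* was at -0.71 and *Dbh* at -0.25. The placement of the synthetic enzymes as lower or higher therefore depends on the scale.

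Ratios within a group show the same unequal pattern. For each *Th* transcript level of 1, *Gch1* stood at 0.254 in control and 0.0908 in CKO ganglia, and at 0.300 in wildtype and 0.270 in hypomorphic ganglia. *Gch1* exceeded *Pts* 3.92-fold in control ganglia, but was 0.906 of *Pts* in CKO ganglia. *Slc6a2* was 0.809 of *Slc18a2* in control and 0.276 in CKO ganglia, and 1.34 and 1.06 of it in wildtype and hypomorphic ganglia.

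*Maoa* was 0.271 of *Dbh* in control and 0.115 in CKO ganglia, while the ratio of *Maoa* to *Maob* was 8.50 in control and 9.13 in CKO ganglia. The oxidases were therefore lower to a like degree. Since both are X-linked and the pools may differ in sex, 5 genes that tell the sexes apart were read. *Xist*, which is transcribed from the inactive X of females, was at 43.7 FPKM in the control and 14.0 in the CKO, and the Y-linked *Ddx3y* was at 9.58 and 11.8, *Eif2s3y* at 9.43 and 9.75, *Kdm5d* at 3.75 and 3.34, and *Uty* at 3.29 and 3.51. The 472 X-linked genes with a position had a median log2 ratio of 0.05 in CKO ganglia, against 0.06 for all placed genes, and 12.9% of them were at least 1.5-fold lower. The X-linked genes as a whole were thus not lower. As females carry an inactive X, this median need not follow the sex mix of the pools. The part of sex in the *Maoa* and *Maob* values was not tested.

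**Figure D3:**
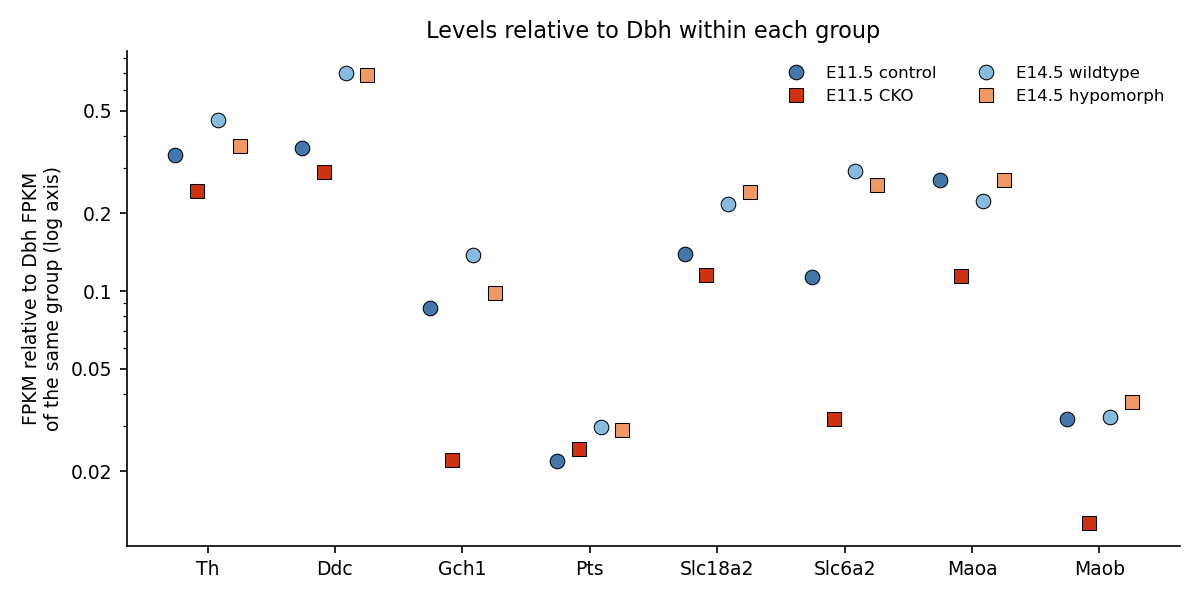
FPKM of 8 catecholamine genes divided by the *Dbh* FPKM of the same group, on a log axis, with 1 point per group and no error bar. The CKO squares of *Gch1* (0.0221), *Slc6a2* (0.0318), *Maoa* (0.115) and *Maob* (0.0126) lie well below the control circles (0.0857, 0.113, 0.271 and 0.0318).

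Reduced *Isl1* was examined at E14.5, when the ganglia are more mature. No member was 1.5-fold lower or higher in hypomorphic than in wildtype ganglia, that is 0 of 9 in each direction, and 2.11% and 2.89% of all 13390 genes were lower and higher. *Gch1* came nearest, at 0.669 of the wildtype level and just inside the fold counted (log2 ratio -0.58), with 2.15% of genes more negative. *Th* followed at 1.35-fold lower (-0.43, 3.81% more negative) and *Slc6a2* at 1.22-fold lower (-0.28, 7.99%).

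The log2 ratios of *Pts*, *Ddc* and *Dbh* were -0.14, -0.12 and -0.10, and those of *Slc18a2*, *Maob* and *Maoa* were 0.05, 0.11 and 0.17. The median of the 9 was -0.12, beside 0.00282 over all genes. In this comparison the oxidases were on the higher side, and they had been among the lower genes in the CKO. At a fold of 1.2, *Th*, *Slc6a2* and *Gch1* were lower and 0 members were higher, where 9% of all genes were lower and 12.2% higher. Centred on the 18 pan-neuronal genes, whose median was -0.26, *Gch1* was at -0.32, *Th* at -0.17 and *Slc6a2* at -0.02, and the median of the members was 0.14.

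*Gch1*, *Slc6a2*, *Th* and *Ddc* had a log2 ratio below 0 in both mutants, each against its own control, and none of the 4 was past 1.5-fold in both. The ratio was -1.82 and -0.58 for *Gch1*, -1.70 and -0.28 for *Slc6a2*, -0.34 and -0.43 for *Th*, and -0.18 and -0.12 for *Ddc*, in the CKO and the hypomorph. A ratio below 0 is a loose measure, since the all-gene medians were 0.05 and 0.00282. The share of all genes below 0 in both was not computed. For *Ddc*, 32.7% of all genes were more negative in the CKO and 23.4% in the hypomorph. Centred on the pan-neuronal genes, *Th* was above 0 in the CKO and *Ddc* in both. The stages and alleles differ together between these comparisons, and the difference between them was not tested.

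Between E11.5 control and E14.5 wildtype ganglia, 6 of 9 members were at least 1.5-fold higher at the later stage and 0 were lower, and 29.7% and 12.8% of the 12646 genes compared were higher and lower. These ratios cross 2 tables that were normalized separately, between embryos that differ in the Cre and the reporter as well as in age. The same control and wildtype values serve in the mutant comparisons. *Slc6a2* was 2.89-fold higher (log2 ratio 1.53), *Ddc* 2.18-fold (1.12), *Gch1* 1.80-fold (0.85) and *Slc18a2* 1.75-fold (0.80).

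*Th* and *Pts* were just past the fold counted, at 1.52-fold and 1.51-fold, and *Maob*, *Dbh* and *Maoa* were at 1.14-fold, 1.12-fold and 0.925-fold of the E11.5 level. The median log2 ratio of the 9 was 0.61, beside 0.24 over all genes. Relative to that all-gene median, 3 members were at least 1.5-fold higher, namely *Slc6a2*, *Ddc* and *Gch1*, as were 19.2% of all genes. Of the 18 pan-neuronal genes 15 were higher, with a median of 1.06 on the log2 scale. Relative to them no member was 1.5-fold higher and *Dbh* (-0.89), *Maob* (-0.87) and *Maoa* (-1.17) were lower. By that same measure 64.2% of all genes were lower and 4.33% higher.

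Within groups, *Ddc* was 0.359 of *Dbh* in control ganglia at E11.5 and 0.700 in wildtype ganglia at E14.5, and *Slc6a2* was 0.113 and 0.292 of *Dbh*. The ratio of *Th* to *Ddc* was 0.940 at E11.5 and 0.657 at E14.5. Relative to *Dbh*, the E14.5 value was 2.59-fold the E11.5 value for *Slc6a2* and 1.95-fold for *Ddc*. It was 1.61-fold for *Gch1*, 1.56-fold for *Slc18a2*, 1.36-fold for *Th* and 1.35-fold for *Pts*. For *Maob* it was 1.02-fold and for *Maoa* 0.826-fold.

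**Figure D4:**
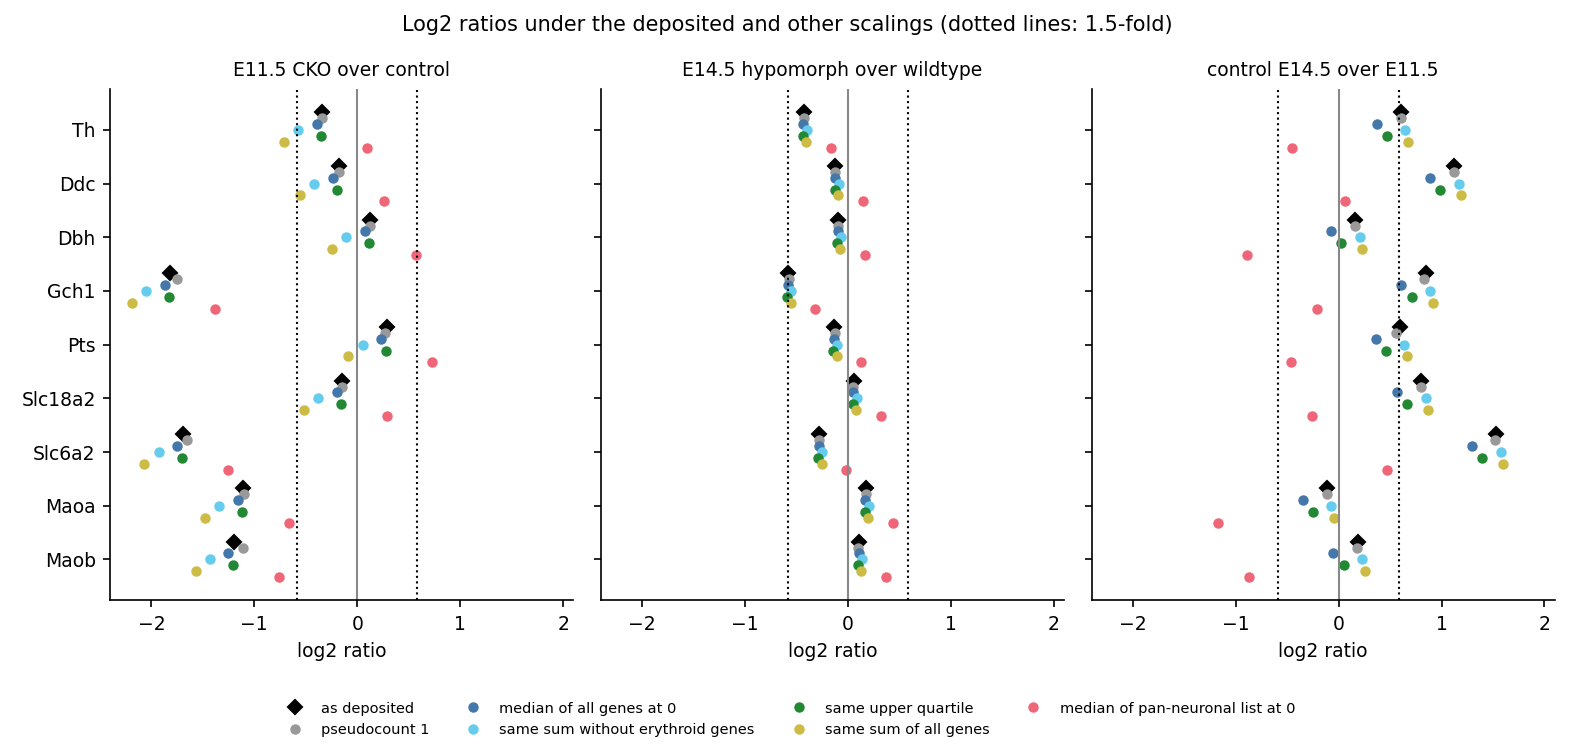
Log2 ratio of each catecholamine gene as deposited (black diamonds) and under 6 other scalings or pseudocounts (coloured points), with 1.5-fold as dotted lines. *Gch1*, *Slc6a2*, *Maoa* and *Maob* stay left of the lower line in the CKO panel under every one, and centring on the pan-neuronal list moves the stage ratios of all members most.

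The other genes of the route did not share 1 direction. Among further tetrahydrobiopterin genes, *Pcbd2* was higher in the CKO, at 11.7 FPKM in the control and 20.3 in the CKO. *Pcbd1* and *Qdpr*, which recycle the cofactor, were within 1.5-fold in both mutants and were higher at E14.5 than at E11.5 (log2 ratios 1.12 and 1.09).

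A list of 9 genes supports synthesis by supplying substrate, cofactors or copper, or extends the route to adrenaline. In the CKO 2 of them were lower and 2 higher, beside 12.9% and 18.9% of all genes. *Slc31a1*, the copper importer, was at 91.3 FPKM in control and 26.5 in CKO ganglia (log2 ratio -1.78), and *Atp7a*, which pumps copper into the secretory route where dopamine beta-hydroxylase is loaded, was 1.59-fold lower (-0.67). *Slc3a2*, the heavy chain of the large neutral amino acid transporter, was among the higher genes, at 32.5 and 58.1 FPKM (0.84). None of the 9 passed the fold in the hypomorph. From E11.5 to E14.5, 4 were higher and 0 lower, beside 29.7% and 12.8% of the genes compared. Among the 4 were *Cyb561*, which regenerates vesicular ascorbate for *Dbh*, at 153 and 376 FPKM, and *Pnmt*, the adrenaline-forming enzyme, at 1.29 and 5.04 (1.89).

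Of 14 genes of vesicle loading, which are the other vesicular transporter *Slc18a1* and proton pump subunits, 0 were past 1.5-fold in the CKO (median log2 ratio 0.08). In the hypomorph *Slc18a1* alone was higher, at 18.2 FPKM in wildtype and 44.4 in hypomorphic ganglia (1.28), whereas *Slc18a2* was at 133 and 138. Between stages *Atp6v0a1* (1.32), *Atp6v0b* (0.99) and *Atp6ap1* (0.72) were higher. *Atp6v0c* was at 257 and 323 FPKM in control and CKO and at 7.91 and 7.57 in wildtype and hypomorphic ganglia, a step between the tables that both genotypes share. Whether the tables differ in annotation or processing was not tested, and every stage ratio given here, those of the members included, would carry such a difference.

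Of 6 other monoamine transporters, only *Slc29a4*, the plasma membrane monoamine transporter, had a value in all groups, at 23.0 FPKM in control, 34.7 in CKO, 70.1 in wildtype and 51.6 in hypomorphic ganglia. Its CKO ratio (0.59) was just past the fold and opposite to that of *Slc6a2*. Of 7 other breakdown genes, 6 had a value. *Aldh2*, a mitochondrial aldehyde dehydrogenase, was higher in the CKO (30.3 and 63.0 FPKM, 1.05), unlike *Maoa* and *Maob*, and 0 were lower. Of the alpha2 and D2 autoreceptors, *Adra2a* was at 4.85 and 9.95 FPKM in control and CKO, and *Adra2c* at 11.1 and 7.17 in wildtype and hypomorphic ganglia.

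Of 7 transcription factors known to act upstream of the route, 5 were at least 1.5-fold lower in the CKO and 0 were higher (median log2 ratio -0.72). The shares of all genes were 12.9% and 18.9%. *Gata2* was at 42.8 FPKM in control and 3.22 in CKO ganglia (-3.69), *Gata3* at 79.1 and 32.4 (-1.29), *Insm1* at 70.9 and 29.8 (-1.25), and *Hand2* at 298 and 193 (-0.62). In the same ganglia *Th* and *Dbh* stood within 1.5-fold of control on the deposited scale. With equal sums over all genes *Th* (-0.71) was past the fold. In the hypomorph 1 of 7 was lower, *Phox2a* at 553 and 360 FPKM (-0.62), and 0 were higher, beside 2.11% and 2.89% of all genes.

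Of 18 pan-neuronal genes, 6 were lower and 0 higher in the CKO, beside 12.9% and 18.9% of all genes. In the hypomorph 1 was lower, beside 2.11% of all genes. *Elavl3* (-1.87), *Nefm* (-1.52) and *Snap25* (-1.47) had CKO ratios near those of *Slc6a2* and *Gch1*. *Nefl*, the most abundant of the list in the control, was at 1008 and 507 FPKM (-0.99). The other 12 were within 1.5-fold, among them *Syp* (-0.03), *Tubb3* (0.22) and *Prph* (0.53). The CKO ratios of the list ran from -1.87 to 0.53, and 15 of the 18 were below 0. Of 8 glial and neural crest genes 7 were higher in the CKO, of 8 mesenchymal genes 5 and of 7 macrophage genes 6. Of 8 endothelial genes 2 were higher, which is near the 18.9% of all genes. In each of these lists 0 were lower. In the hypomorph 1 endothelial gene was higher by the fold, beside 2.89% of all genes, but all 8 had ratios above 0, between 0.25 and 0.63. Their median was 0.48 beside 0.47 in the CKO, and their summed FPKM was 78.6 in wildtype and 111 in hypomorphic ganglia. The 8 mesenchymal and 7 macrophage genes were also all above 0, with medians of 0.28 and 0.25, and 0 of these or of the glial genes passed the fold. The part of these cells in the hypomorph values of the 9 genes was not tested. Of 4 cholinergic genes, 2 were higher and 0 lower in the CKO, where 18.9% of all genes were higher. *Slc5a7*, the choline transporter, was at 2.64 FPKM in the control and 14.5 in the CKO, and *Ache* at 8.83 and 30.0. *Slc18a3*, at 33.3 and 47.6 FPKM, and *Chat*, at 1.83 and 1.34, were within 1.5-fold. None of the 4 passed the fold in the hypomorph.

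**Figure D5:**
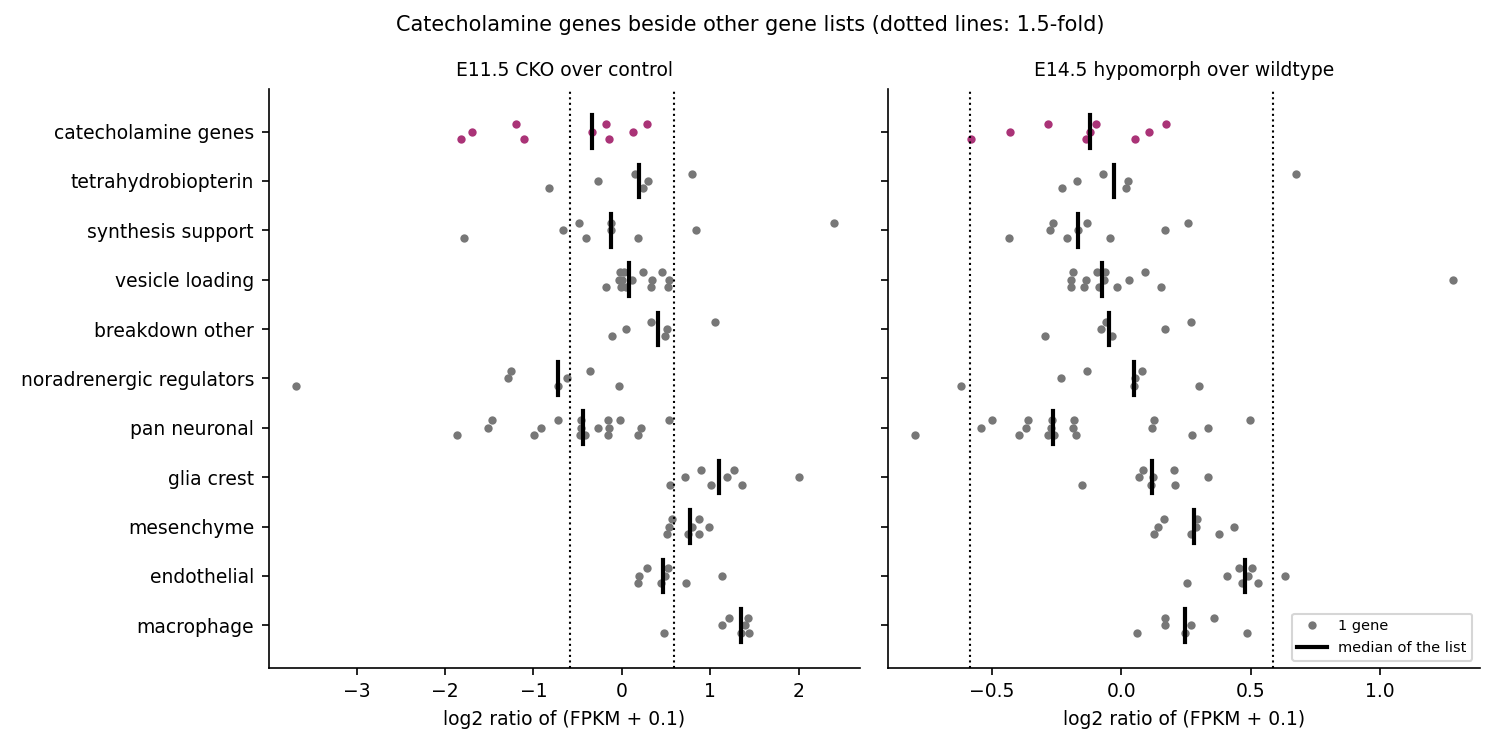
Log2 ratio of (FPKM + 0.1) of each catecholamine gene (purple) and of each gene of 10 other lists with a value (grey), with the median of a list as a black bar and 1.5-fold as dotted lines; the axes of the 2 panels differ in range. In the CKO panel the medians of the catecholamine genes (-0.34), the noradrenergic regulators (-0.72) and the pan-neuronal genes (-0.44) lie left of 0, and those of glia and crest (1.10), mesenchyme (0.77), endothelium (0.47) and macrophages (1.34) lie right of it.

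Likeness of pattern was measured as the Euclidean distance between the 4 log2 values of a gene, each centred on its own mean, among 5997 genes with at least 10 FPKM in every group. For *Th* the nearest genes were *Insig1* (0.0590), *Sgtb* (0.0961) and *Ralgds* (0.128), for *Ddc* they were *Tagln2* (0.0669), *Vash1* (0.0695) and *Pcbd1* (0.0754), and for *Dbh* they were *Tfg* (0.0265), *Unc119* (0.0271) and *Zfp768* (0.0362). Such neighbours are common, since 1458 genes lay within 0.5 of *Th*, 624 of *Ddc* and 3047 of *Dbh*.

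The patterns of *Slc6a2* and *Gch1* were rarer, with 4 and 11 genes within 0.5. The nearest to *Slc6a2* was *Ncam1*, named after its values were seen, at 65.6 FPKM in control, 20.8 in CKO, 199 in wildtype and 147 in hypomorphic ganglia (distance 0.117). Among the members themselves, the closest pairs were *Ddc* with *Slc18a2* (0.279), *Maoa* with *Maob* (0.321) and *Dbh* with *Pts* (0.354), and the farthest was *Dbh* with *Slc6a2* (2.54). These distances rest on 4 pooled values each and describe them only.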

How the data were processed

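RNA-seq of sympathetic ganglia was deposited as 1 table per stage. Per the study's methods the authors aligned paired reads to mm9 with TopHat and estimated expression with cuffdiff; the submitters' processing notes name Bowtie, TopHat 1.3.1, Cuffdiff 1.3.0 and dm3, a fruit fly build, and the gene symbols are of mouse. The FPKM values were computed by the authors and deposited as 1 value per group over 2 libraries. Their log2 fold change and p-value columns, which compare mutant with control, were not used. Depth is not given, so no precision could be stated.

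Log2 ratios of FPKM + 0.1 were computed where either group reached an FPKM of 1, and 1.5-fold was counted. Rows with a date in place of a symbol (22 and 23) were left out. Of the lists, genes past 1.5-fold with an FPKM of 5 or more were named, at most 4 per list and comparison, besides the most abundant marker. Some genes of the lists are not reported here. The members and lists were chosen with earlier results of these data known, as were the motifs. Alternatives were other pseudocounts, filters, folds and scalings, of which 2 scalings were added after seeing the data. The steps were tested on simulated data before use. Positions are from GENCODE vM1 (mm9) and promoters from RefSeq (GRCm38.p6). Python 3.11.15, numpy 2.4.6, pandas 2.3.3 and matplotlib 3.10.9 were used.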

Additional observations from a re-analysis of the deposited data

How the results depend on the processing

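No paired analysis was possible because each genotype's 2 libraries are combined in 1 column, and for the same reason no library could be left out. Of 11 alternatives, *Gch1*, *Slc6a2*, *Maoa* and *Maob* kept a CKO ratio past 1.5-fold under all 7 that recompute their ratio; the filters on low values leave it as it is. Centred on the pan-neuronal genes, 1 member (*Pts*) was higher in the CKO and the member medians turned to 0.10 in the CKO, 0.14 in the hypomorph and -0.45 between stages. There 3 members were then lower and 0 higher, with *Th* at -0.45, *Slc18a2* at -0.25, *Gch1* at -0.21 and *Pts* at -0.46. With that centring 42.7% of all genes were higher in the CKO, and 64.2% were lower and 4.33% higher between stages. At a fold of 1.2, 1 member was higher in the CKO (*Pts*) and 3 were lower in the hypomorph, beside 34.8% and 9% of all genes. With equal upper quartiles 1 was lower in the hypomorph (*Gch1*, -0.59), beside 2.17% of all genes. With equal sums over all genes 5 were lower in the CKO, *Th* (-0.71) among them, beside 30.5% of all genes. Between stages 3 were higher when centred on all genes and 2 at a fold of 2, beside 19.2% and 13.6% of all genes.

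Over all genes, lower and higher counts were 1746 and 2547 in the CKO (652 and 1134 at a fold of 2, 3708 and 4690 at 1.2), 283 and 387 in the hypomorph (105 and 131, 1205 and 1638, and 187 and 217 with a pseudocount of 1), and 1617 and 3756 between stages (860 and 1723, 2898 and 6108). An FPKM minimum of 5 left 172 and 225 in the hypomorph and 1325 and 1551 in the CKO. The share of higher among counted genes was 59.3% in the CKO, and 35.2% without erythroid genes, 23.5% with equal sums and 90.3% centred on pan-neuronal genes, with all-gene medians of -0.18, -0.32 and 0.49. Between stages it was 69.9%, and 49.6% centred on all genes, 58.9% with equal upper quartiles and 6.32% centred on pan-neuronal genes; in the hypomorph it was 57.8%, and 89.4% with that last centring. Centring on a list sets that list's median to 0, which by construction adds the same value to every ratio.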
